A study of Mus musculus with 412 samples.

Results

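Colonic sensory neurons that express Smr2 were compared with colonic sensory neurons that express Trpa1 at a high level. The neurons were chosen by measured levels. A Smr2 neuron had a Smr2 level of at least 10 TPM, the length-scaled share of a neuron's transcripts brought to a sum of 1000000, and a high Trpa1 neuron had less than 10 TPM of Smr2, at least 100 TPM of Trpa1, at least 10 TPM of Gfra3 and less than 10 TPM of Ntm. Both kinds also had at least 9500 genes above 0. By this rule there were 18 Smr2 neurons and 90 high Trpa1 neurons, 108 in all, among 279 neurons with enough genes and 325 neurons of the deposited table. The other 171 neurons with enough genes belonged to neither group.

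All neurons came from healthy C57BL/6J mice, with no other strain or treatment among the groups. They had taken up Fast Blue (FB), a tracer injected into the colon wall and carried back along the axon, and were picked 1 by 1 from cultured dorsal root ganglia (DRG) of the thoracolumbar (TL, T10-L1) or lumbosacral (LS, L5-S2) segments. Polyadenylated RNA of each neuron was sequenced by Smart-seq2, a full-length cDNA method without molecular identifiers, in 6 library plates, and the labels list 203 TL and 196 LS neurons. The labels name neither the mouse nor the culture, so each group counted as 1 sample, no test was made, no p-value is given and no difference between the groups has a replicate check.

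TRPA1 is a cation channel of sensory nerve endings that is opened by irritants such as mustard oil. Neurons that carry it are often peptidergic nociceptors, which release calcitonin gene-related peptide (CGRP) and substance P. The study also found Trpa1 in its non-peptidergic subtype, mNP. Smr2 encodes a small secreted protein first known from salivary glands. The study took Smr2 as a marker of one peptidergic subtype of colonic neuron, mPEPa, and Trpa1 as a marker of another, mPEPb.

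Smr2 ranged from 10.3 to 2487 TPM in the Smr2 neurons, with a median of 340.2 TPM, and was at most 1.99 TPM in the high Trpa1 neurons. These levels chose the neurons and are given as a description. The 3 Smr2 neurons nearest to the limit had 10.3, 13.9 and 15.5 TPM, and the nearest neurons below it had 7.25, 5.57 and 4.48 TPM. Trpa1 ranged from 108 to 1695 TPM (median 623) in the high Trpa1 neurons, where the values nearest to the limit were 108, 129 and 129 TPM inside it and 95.6, 95.4 and 93.1 TPM outside it. In the Smr2 neurons Trpa1 ranged from 0 to 168 TPM with a median of 0, and 6 of 18 neurons reached 10 TPM. Only 2 Smr2 neurons also passed the limits on Trpa1, Gfra3 and Ntm.

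**Figure D1:**
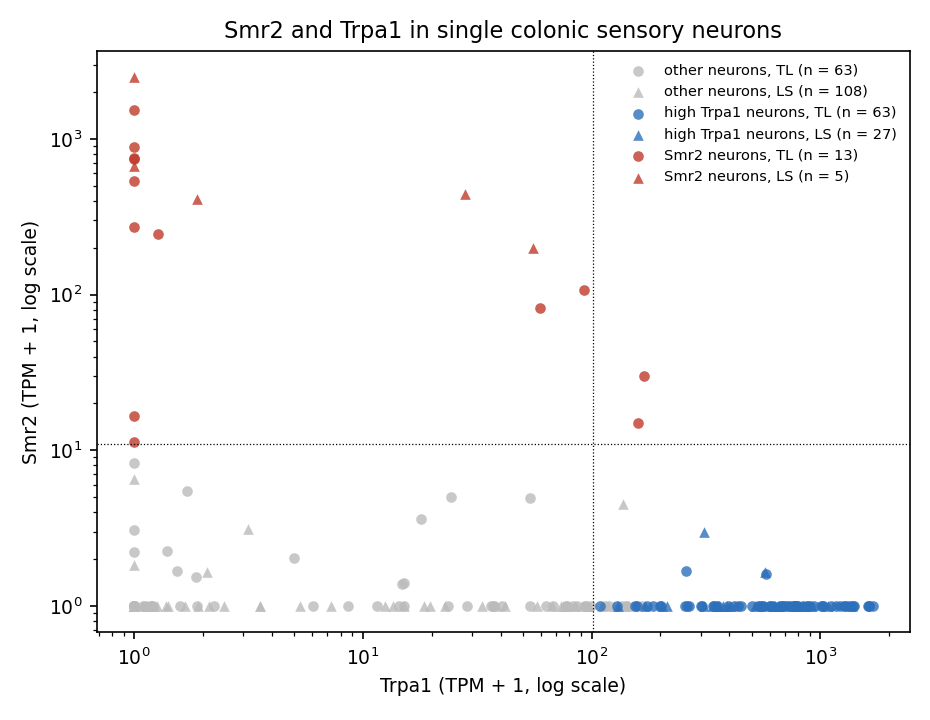
Smr2 (vertical axis) against Trpa1 (horizontal axis) in 279 neurons, both as TPM + 1 on log scales, with circles for TL and triangles for LS neurons and dotted lines at the limits of 10 TPM of Smr2 and 100 TPM of Trpa1. The 90 high Trpa1 neurons lie along the lower right, and 12 of 18 Smr2 neurons lie at Trpa1 levels below 10 TPM.

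The sequence before the start of Smr2 is shown because this gene defines the group and several annotated genes beyond it on the same strand were seen with it. Smr2 lies on the plus strand of chromosome 5 from 88086556 to 88109053 (GRCm38), and the 250 bases before its start are chr5:88086306-88086555. Asic3, which encodes a proton-gated channel and was among the leading genes of the Smr2 neurons, starts elsewhere on the same chromosome, and the 250 bases before it are chr5:24413201-24413450 on the plus strand. Both sequences are RefSeq windows of GRCm38.p6. Capitals mark TATAA, the core of a TATA box searched on the gene's own strand, and TGTGGT or its reverse complement ACCACA, the core of a RUNX site searched on both strands.
Smr2: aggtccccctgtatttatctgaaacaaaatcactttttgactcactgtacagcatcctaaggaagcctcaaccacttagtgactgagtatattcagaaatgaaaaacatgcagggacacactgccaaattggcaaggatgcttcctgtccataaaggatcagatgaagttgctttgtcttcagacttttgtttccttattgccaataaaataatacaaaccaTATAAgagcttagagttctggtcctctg
Asic3: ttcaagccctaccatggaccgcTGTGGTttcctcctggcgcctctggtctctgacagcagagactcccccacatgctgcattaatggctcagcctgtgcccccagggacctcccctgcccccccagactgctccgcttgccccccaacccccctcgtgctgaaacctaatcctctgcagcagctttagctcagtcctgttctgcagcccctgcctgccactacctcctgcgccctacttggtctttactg
The Smr2 window held TATAA once, 28 bases before the start, and no RUNX core. The Asic3 window held 1 RUNX core, 228 bases before the start, and no TATAA. Among 32851 promoter windows of the same length, 16.0% held TATAA and 14.0% held a RUNX core. Within 40 to 21 bases before the start, 3.315% of them held TATAA. The homeodomain core TAATTA, searched on both strands and held by 4.84% of all windows, was in neither. The window of Chrna7, searched in the same way and not shown, held none of these motifs.

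Transcripts from the stretch of chromosome 5 beyond Smr2 were among the leading genes of the Smr2 neurons. Gm42622, Gm42621 and Gm42164, annotated as pseudogenes, and Gm7714, annotated as protein-coding, all lie on the plus strand and begin 58.1, 110, 124 and 182 kb after the start of Smr2. Gm42164 ranged from 22.2 to 1816 TPM (median 167) in Smr2 neurons and from 0 to 28.8 TPM (median 0) in high Trpa1 neurons. Gm42621 ranged from 10.2 to 473 TPM (median 52.4) and was at most 9.43 TPM in high Trpa1 neurons. Apart from Smr2 itself, Gm42621 was the only gene whose levels did not overlap between the groups. Gm42622 reached 10 TPM in 17 of 18 Smr2 neurons and 1 of 90 high Trpa1 neurons, and Gm7714 in 9 of 18 and 0 of 90, where a count of 0 allows a share of up to 3.33%, taken as 3 of 90 neurons. Among the 171 other neurons, Gm42622 reached 10 TPM in 3, Gm42621 in 4, Gm42164 in 7 and Gm7714 in 0.

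Between the Smr2 neurons, Gm42622 followed Smr2 closely (Spearman's rho 0.91 over 18 neurons of the same libraries), while Gm7714 (0.70), Gm42621 (0.61) and Gm42164 (0.54) followed it less. The longest annotated transcript of Gm42621 was 94.8% identical to that of Smr2 over 212 bases, so that reads of Smr2 could have been counted on it, and its level is uncertain. For Gm42622 and Gm42164 the best match to Smr2 was 78.2% over 110 bases and 73.9% over 115 bases, and for Gm7714 71.3% over 616 bases. Gm42623, a pseudogene 15.6 kb before Smr2 with 80.5% identity over 380 bases, was listed at 0 in both groups. Medians of 77, 25 and 103.5 reads stood behind Gm42622, Gm42621 and Gm42164 in a Smr2 neuron, against 822.5 behind Smr2. Gm11116, on the minus strand 24.0 kb after the start of Smr2, reached 10 TPM in 3 Smr2 neurons, with 49.6 TPM as the highest. Smr3a, 84.0 kb before Smr2, did so in 1 Smr2 neuron, at 20.3 TPM, and both genes were at 0 in the high Trpa1 neurons.

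**Figure D2:**
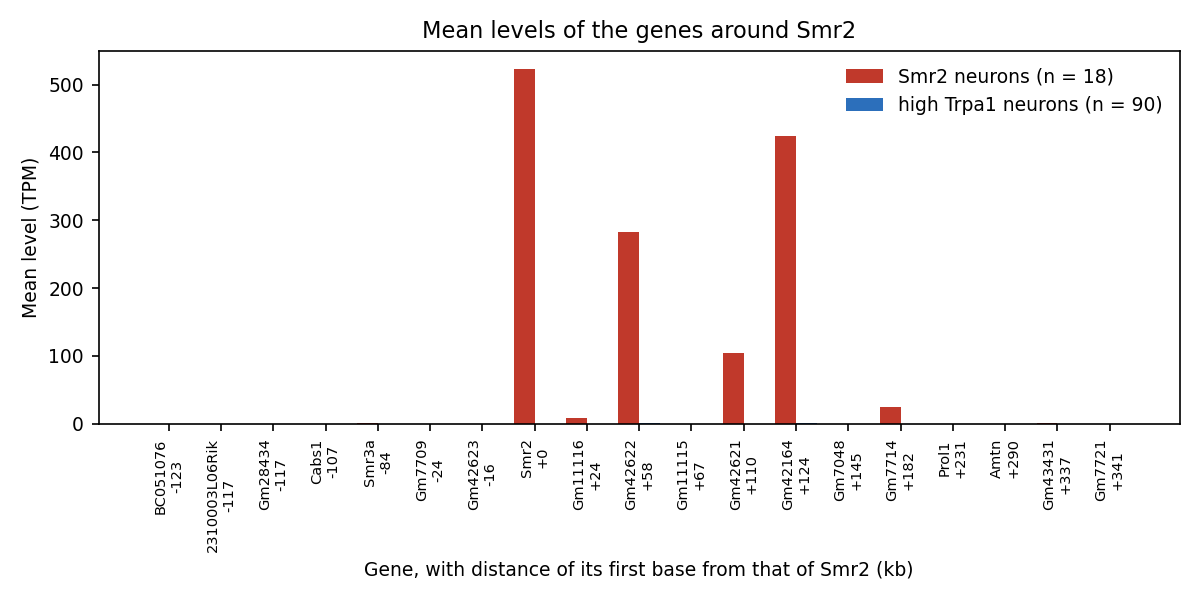
Mean level in TPM (vertical axis) of every annotated gene around Smr2 in 18 Smr2 neurons (red) and 90 high Trpa1 neurons (blue), in order along the chromosome with the distance from the first base of Smr2 in kb. Smr2, Gm42622, Gm42621, Gm42164 and Gm7714 are seen in Smr2 neurons, with means of 24.3 TPM or more, whereas no mean in high Trpa1 neurons is above 1.14 TPM.

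Across the genome, the mean TPM of the groups was compared as log2 of (mean + 1) in Smr2 neurons over (mean + 1) in high Trpa1 neurons, which understates the ratio of low genes. A gene was called higher or lower when this ratio passed 2-fold and had the same sign in each of plates 2, 3 and 4, the plates with at least 3 neurons of each group. Of 9410 genes with an average of the group means of at least 5 TPM, 311 (3.3%) were called higher and 528 (5.61%) lower in Smr2 neurons, and the median log2 ratio of all of them was -0.08. Without the condition on plates the counts were 466 (4.95%) and 566 (6.01%). Another scale moved the balance of the calls, since 282 genes were higher and 815 lower with the deposited values taken off the log scale and not rescaled, and 287 and 864 from means of log2 values, where the median of all genes was -0.21. On those scales 25.7% and 24.9% of the calls were higher, against 37.1%.

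Both groups were DRG neurons by their markers. All 10 genes of sensory neuron identity, among them Tubb3, Avil and Isl1, had a mean of at least 10 TPM in each group, and none of the 10 was called. Their summed level ranged from 5135 to 19122 TPM (median 14967) in Smr2 neurons and from 8068 to 28851 TPM (median 16511) in high Trpa1 neurons. Reads on genes ranged from 938795 to 10542893 (median 5588830.5) in Smr2 neurons and from 492646 to 9531920 (median 3268227.5) in high Trpa1 neurons. Smr2 neurons had fewer genes above 0 (median 12745.5 against 14114.5) although they had more reads. Between 11 and 5421 reads stood behind each level of Smr2 in Smr2 neurons, and between 123 and 13199 behind each level of Trpa1 in high Trpa1 neurons. Shares are given with exact 95% intervals by the method of Clopper and Pearson. These hold the error of counting neurons alone, and reads without molecular identifiers are not independent molecules.

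Of the Smr2 neurons 5 of 18 came from LS DRG (27.8%, interval 9.69% to 53.5%), and of the high Trpa1 neurons 27 of 90 (30.0%, interval 20.8% to 40.6%). Among the other neurons 108 of 171 were LS (63.2%, interval 55.5% to 70.4%). Both groups were thus mainly TL, and a difference in LS share between them was not detectable with these numbers. The rule kept neurons with at least 10 TPM of Ntm out of the high Trpa1 group, and 41 of the 171 other neurons had that level. No such limit was set for Smr2 neurons, of which 0 of 18 had it. Ntm is the study's marker of pPEP, a subtype found almost only in LS DRG. The LS shares of the high Trpa1 and other neurons were therefore in part set by the rule. The plates differed, however, with 0 of 5 Smr2 neurons from LS in plate 2 and 3 of 3 in plate 3. Smr2 neurons made up 9.35% of 139 TL neurons (interval 5.07% to 15.5%) and 3.57% of 140 LS neurons (interval 1.17% to 8.14%). High Trpa1 neurons made up 45.3% of TL and 19.3% of LS neurons.

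Genes were grouped by role in 16 lists of peptides, receptors, channels, synaptic and guidance genes and transcription factors. Over these lists, 223 genes were measured well enough to be compared and 222 were not. Of the 223, 34 were higher (15.2%) and 64 lower (28.7%) in Smr2 neurons, with a median log2 ratio of -0.33. The lists were written with results of these data known, so that these shares are a description beside those of all genes.

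Among the neuropeptides, which peptidergic neurons release, 5 of 10 genes compared were lower in Smr2 neurons and 0 were higher. Gal, which encodes galanin, ranged from 0 to 1939 TPM (median 16.3) in Smr2 neurons and from 19.1 to 21130 TPM (median 5366) in high Trpa1 neurons. Tac1, the precursor of substance P, ranged from 0 to 3770 TPM (median 857) and from 710 to 6472 TPM (median 3198). The levels of both genes overlapped between the groups, although the median of Gal in Smr2 neurons lay below the lowest high Trpa1 neuron (log2 ratio of means -3.92 for Gal and -1.20 for Tac1). Cartpt (-3.50), Agrp (-1.80) and Adcyap1, which encodes PACAP (-1.07), were the other 3. Calca, which encodes CGRP, was among the most abundant mRNAs of both groups, with 2535 to 33327 TPM (median 25170) in Smr2 neurons and 8544 to 46644 TPM (median 27469) in high Trpa1 neurons, and was not called (-0.41). Nmb, which encodes neuromedin B, had means of 1058 and 1073 TPM.

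Receptors for growth factors were mostly shared, with 1 of 14 higher and 2 lower. Ngfr, the low-affinity neurotrophin receptor, had a mean of 1764 TPM in Smr2 neurons and 1734 TPM in high Trpa1 neurons. Ret, which signals for the ligands of the GDNF family together with co-receptors such as GFRA3, ranged from 0 to 203 TPM (median 13.8) in Smr2 neurons and from 25.2 to 1048 TPM (median 339) in high Trpa1 neurons. The groups overlapped, with a log2 ratio of -2.66. Kit was also lower (-1.02) and Fgfr1 higher (1.06). Gfra3 itself was part of the rule for high Trpa1 neurons, and it was 0 in most Smr2 neurons, with 6 of 18 at 10 TPM or more.

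Of 7 TRP channel genes compared beside Trpa1, 4 were lower in Smr2 neurons and 0 higher. Trpv1, the capsaicin receptor, ranged from 0 to 1066 TPM (median 177) in Smr2 neurons and from 132 to 2715 TPM (median 1049) in high Trpa1 neurons. It reached 10 TPM in 12 of 18 Smr2 neurons (66.7%, interval 41.0% to 86.7%) and in all 90 high Trpa1 neurons. Trpv2 (-1.42), Trpm2 (-1.07) and Trpc7 (-2.15) were the other 3, at means of at most 92.5 TPM in either group.

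Channels gated by acid and force were split, with 4 of 13 genes higher and 3 lower. Asic3 ranged from 0 to 1058 TPM (median 198) in Smr2 neurons and from 0 to 495 TPM (median 0) in high Trpa1 neurons. It reached 10 TPM in 16 of 18 Smr2 neurons (88.9%, interval 65.3% to 98.6%), in 4 of 90 high Trpa1 neurons (4.44%, interval 1.22% to 10.99%) and in 48 of the 171 other neurons. The ranges overlapped, and the log2 ratio of means was 4.77. With each neuron thinned to 500000 reads and a limit of 5 reads, the shares were 88.9% and 4.49%. Piezo2, the stretch-activated channel of touch receptors, was low in both but had a mean of 19.9 TPM in Smr2 neurons and 3.05 TPM in high Trpa1 neurons (2.37), and reached 10 TPM in 9 of 18 and 7 of 90. Asic1 (2.25) and Kcnk18 (2.36) were also higher.

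The potassium leak channels TREK-1 and TASK-1, encoded by Kcnk2 and Kcnk3, went the other way. Kcnk2 ranged from 0 to 16.8 TPM (median 0.11) in Smr2 neurons and from 0 to 207 TPM (median 85.9) in high Trpa1 neurons, and Kcnk3 from 0 to 32.3 TPM (median 0) and from 0 to 339 TPM (median 116). The ranges overlapped, but 88 of 90 high Trpa1 neurons reached 10 TPM of Kcnk2 against 2 of 18 Smr2 neurons. The log2 ratios were -4.43 and -4.32. Asic2 was the third gene that was lower (-1.94).

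**Figure D3:**
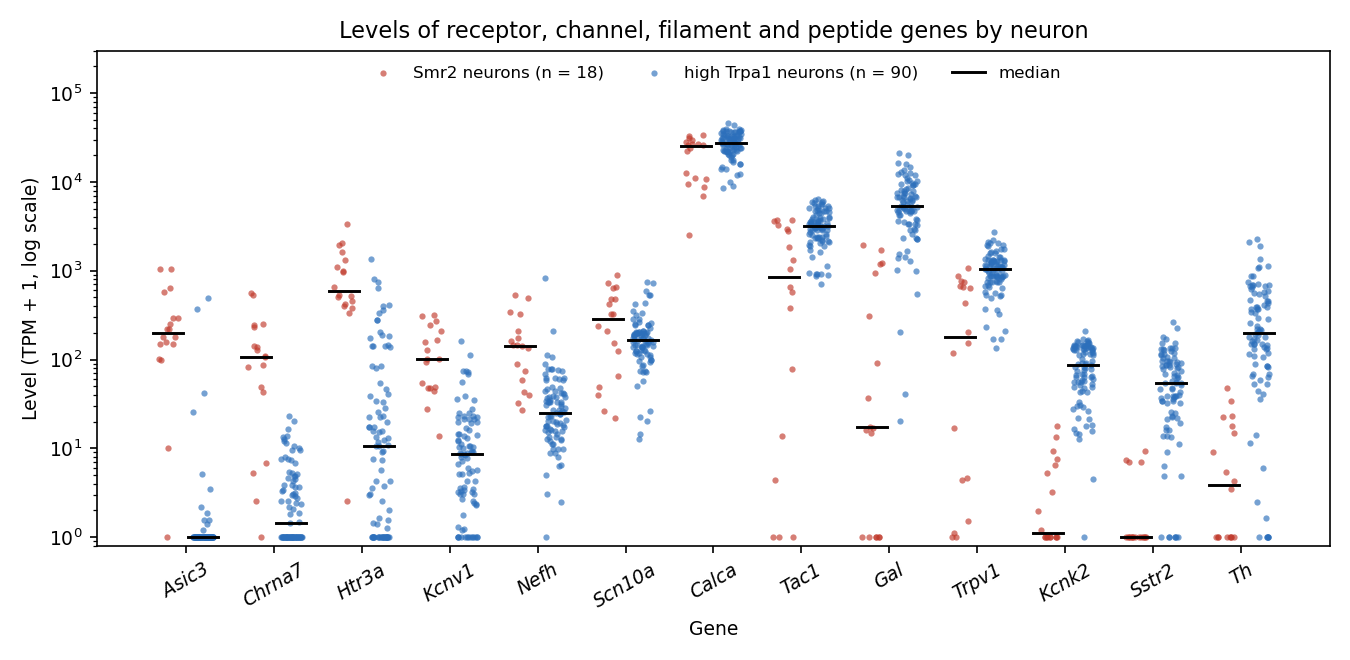
Levels of 13 genes in each of 18 Smr2 neurons (red) and 90 high Trpa1 neurons (blue), as TPM + 1 on a log scale, with a black line at the median. Asic3, Chrna7, Htr3a, Kcnv1 and Nefh sit higher in Smr2 neurons, Gal, Trpv1, Kcnk2, Sstr2 and Th lower, and Calca overlaps.

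Voltage-gated channels were likewise split. Of 8 sodium channel genes, 2 were higher, with Scn4b at a mean of 11.8 TPM in Smr2 and 1.35 TPM in high Trpa1 neurons. Scn11a, which encodes Nav1.9, was lower (29.9 and 75.4 TPM). Scn10a, which encodes the nociceptor channel Nav1.8, was found in every neuron of both groups with means of 327 and 190 TPM, and was not called (0.78), and neither was Scn9a (-0.33). Of 20 potassium and HCN channel genes, 5 were higher and 6 lower. Kcnv1, a silent subunit that modifies other potassium channels, ranged from 12.9 to 319 TPM (median 100.2) in Smr2 neurons and from 0 to 159 TPM (median 7.56) in high Trpa1 neurons. All 18 Smr2 neurons and 33 of 90 high Trpa1 neurons reached 10 TPM, with a log2 ratio of 3.08. The channel-interacting proteins Kcnip1 (4.20) and Kcnip3 (1.80) and the axonal channels Kcna1 (2.49) and Kcna2 (1.08) were also higher. Kcnc4 (-2.91) and Kcnmb2 (-2.27) led the genes that were lower. Of 8 calcium channel genes, Cacnb4 was higher (1.16), and Cacna1e and Cacna2d1 (-1.20) were lower.

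In the list of filament genes and genes linked to large fibres, 5 of 14 were higher and 1 lower. The paper holds it unlikely that such neurofilament markers go with much myelination in these visceral neurons. Nefh, the heavy neurofilament, ranged from 26.1 to 532 TPM (median 143) in Smr2 neurons and from 0 to 829 TPM (median 24.2) in high Trpa1 neurons. The ranges overlapped, and the log2 ratio was 2.05. The high Trpa1 neuron with 829 TPM also had 495 TPM of Asic3 and 82.9 TPM of Fam19a1, the study's marker of its subtype mNFb. The next highest Nefh level in that group was 211 TPM. Thy1 (3.58), Cntn1 (3.31), Vsnl1 (1.78) and Ldhb (1.02) were the other 4, and Ina, which encodes internexin, was lower (-2.83). Prph, the filament of small fibres, had means of 2649 and 3490 TPM and was not called.

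Transcripts of the 5-HT3 receptor, an ion channel opened by serotonin, were more abundant in Smr2 than in high Trpa1 neurons. Htr3a ranged from 1.56 to 3394 TPM (median 595) in Smr2 neurons and from 0 to 1342 TPM (median 9.74) in high Trpa1 neurons. It reached 10 TPM in 17 of 18 and 44 of 90 neurons, and the log2 ratio was 3.46. Among the other neurons 143 of 171 reached 10 TPM, and their median of 873 TPM was above that of the Smr2 neurons. Htr3b, its partner subunit, was also higher (1.74), and Htr5b was lower (-3.36). Of 6 purine receptor genes compared, P2ry2 (2.90) and P2rx5 (1.00) were higher and Adora1 lower (-2.005), while P2rx3 was not called (37.6 and 60.2 TPM).

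Among 17 other ligand-gated channel genes 1 was higher and 7 were lower. Chrna7, which encodes the alpha7 nicotinic acetylcholine receptor, ranged from 0 to 567 TPM (median 107) in Smr2 neurons and from 0 to 22.1 TPM (median 0.45) in high Trpa1 neurons. It reached 10 TPM in 14 of 18 Smr2 neurons (77.8%, interval 52.4% to 93.6%), 8 of 90 high Trpa1 neurons (8.89%, interval 3.92% to 16.8%) and 20 of 171 other neurons. With thinned reads the shares were 88.9% and 14.6%. Other nicotinic subunits went the opposite way. Chrnb3 had a mean of 17.7 TPM in Smr2 and 185 TPM in high Trpa1 neurons, Chrna3 87.4 and 339 TPM, and Chrnb4 121 and 290 TPM. The glutamate receptor genes Gria1 (-3.30), Grik1 (-3.52) and Grin3a (-1.33) were lower too, though only 6 of 90 high Trpa1 neurons reached 10 TPM of Grik1.

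Receptors that couple to inhibition were lower in 6 of 14 genes compared and higher in 1. Sstr2, a somatostatin receptor, was at most 8.28 TPM in Smr2 neurons (median 0) and ranged from 0 to 265 TPM (median 53.5) in high Trpa1 neurons. Oprl1, the nociceptin receptor, was at most 6.39 TPM (median 0) in Smr2 neurons and ranged from 0 to 161 TPM (median 38.3) in high Trpa1 neurons. Neither gene reached 10 TPM in any of the 18 Smr2 neurons (interval 0% to 18.5%), whereas Sstr2 did so in 79 and Oprl1 in 76 of 90 high Trpa1 neurons. The log2 ratios were -4.73 and -4.58. Adra2a (-3.54), Npy1r (-1.97), Gpr35 (-1.94) and Cnr1, the CB1 cannabinoid receptor (-1.85), were the other 4. Oprm1, the mu opioid receptor, did not pass the ratio (37.5 and 56.2 TPM), and Chrm2 was higher (1.09).

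Receptors of inflammatory and other mediators followed a like pattern, with 9 of 26 lower and 1, Prokr2 (1.76), higher. Npffr2, a receptor of RFamide peptides, was listed at 0 in all 18 Smr2 neurons and ranged from 0 to 189 TPM (median 30.8) in high Trpa1 neurons, 60 of which reached 10 TPM. Casr, the calcium-sensing receptor (-3.05), Ptgdr (-2.98), Grpr (-2.87) and Il13ra1 (-2.18) were lower with medians of 8.14 to 25.6 TPM in high Trpa1 neurons. Mrgprd was called lower through only 2 high Trpa1 neurons that reached 10 TPM, the highest at 574 TPM, and Lpar3 through 15. Bdkrb2, a bradykinin receptor, had means of 13.9 and 15.2 TPM.

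Of 23 genes of transmitters and the synapse, 3 were higher and 8 lower. Th, the first enzyme of catecholamine synthesis, ranged from 0 to 47.4 TPM (median 2.86) in Smr2 neurons and from 0 to 2274 TPM (median 199.8) in high Trpa1 neurons. It reached 10 TPM in 6 of 18 and 81 of 90 neurons, with a log2 ratio of -5.10. Nos1, the neuronal nitric oxide synthase, was lower (-1.39). The vesicle proteins were split, with Syt6 (2.43), Cplx2 (2.16) and Syt2 (1.72) higher and Syt9 (-1.32), Syt7 (-1.33) and Syt5 (-1.03) lower.

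Of 27 transcription factor genes, 20 were not called. Irx6 (-4.13), Hmx1 (-3.68), Ebf4 (-2.79) and Rxrg (-2.44) were lower, and Nr4a2 (1.80), Nfib (1.44) and Pknox2 (1.14) were higher. Runx1, a regulator of nociceptor fate, had means of 4.18 and 6.399 TPM. Among 12 axon guidance genes 3 were higher, with Sema5a (1.98) and Nrp2 (1.496) ahead, and 4 were lower.

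**Figure D4:**
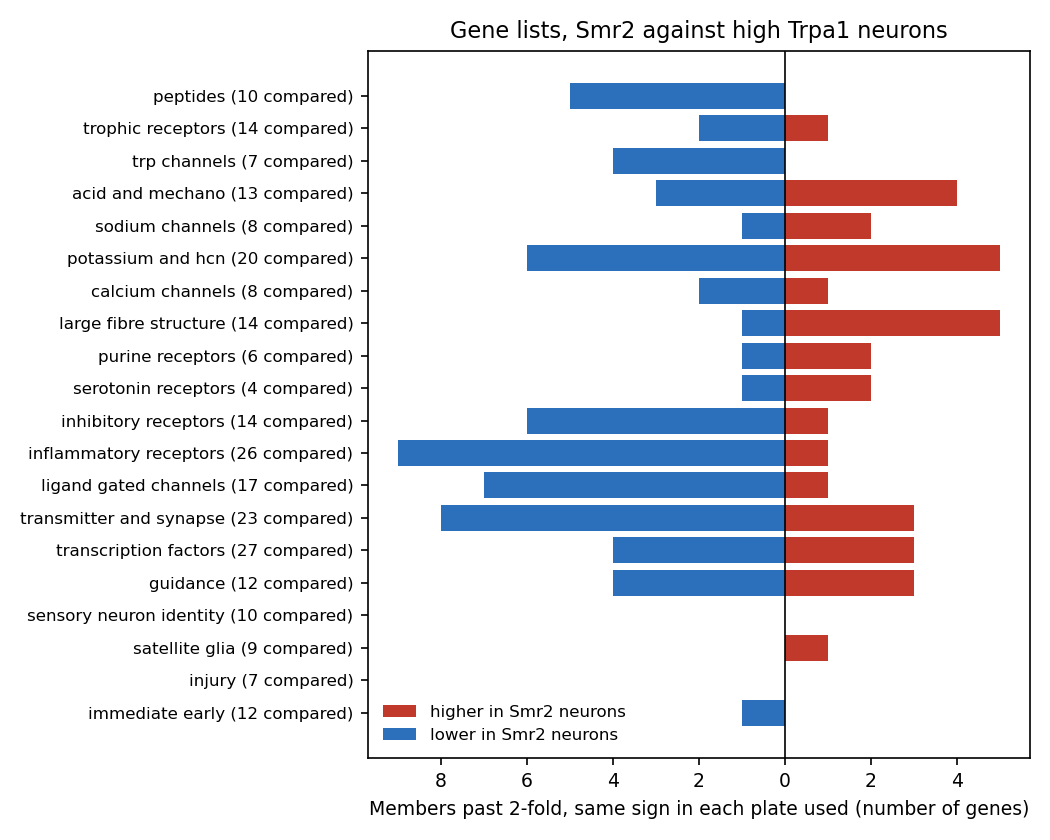
Number of genes in each list called higher (red, to the right) or lower (blue, to the left) in 18 Smr2 neurons than in 90 high Trpa1 neurons, with the number of genes compared beside each list. Peptides and TRP channels have bars to the left alone, and acid and mechanical channels, potassium channels and large fibre genes have bars to both sides.

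The 12 genes with the largest ratios in each direction, among those found in at least 50% of the neurons of the higher group, held genes of no list. Beside the transcripts near Smr2, Chrna7 and Asic3, the leading genes of Smr2 neurons were Cldn9, a claudin of tight junctions (5.78), Chp2, a calcium-binding partner of sodium-proton exchangers (5.11), Cdr1 (4.72), Tmem233, a membrane protein that binds sodium channels (4.54), the calmodulin-like Calml4 (4.44) and Hopx (4.31). Tmem233 ranged from 0 to 629 TPM (median 144) in Smr2 neurons and from 0 to 296 TPM (median 0.09) in high Trpa1 neurons, where 7 of 90 reached 10 TPM. Smart-seq2 libraries do not keep the strand, so that reads of Cdr1 and of the antisense RNA of its locus could not be told apart. Several of these genes were also found outside both groups, Calml4 in 123 and Cdr1 in 88 of the 171 other neurons at 10 TPM or more.

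Beside Npffr2, Th, Sstr2, Oprl1, Kcnk2 and Kcnk3, the genes furthest below in Smr2 neurons were Cckar, the receptor of cholecystokinin on vagal and other afferents (-5.29), Tnfaip8l3 (-5.17), the heparan sulfate sulfotransferases Hs3st2 (-4.79) and Hs6st2 (-4.33), Qpct, the enzyme that forms the pyroglutamate end of peptides (-4.44), and Pcp4 (-4.29). Cckar was at most 1.84 TPM in Smr2 neurons (median 0) and ranged from 0 to 226 TPM (median 19.7) in high Trpa1 neurons, 61 of which reached 10 TPM. In the other neurons 28 of 171 did so. Qpct and Th were also common among the other neurons, in 123 and 125 of 171.

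Many of these genes were found together in single neurons. Asic3, Htr3a and Kcnv1 were all at 10 TPM or more in 15 of 18 Smr2 neurons (83.3%), 2 of 90 high Trpa1 neurons (2.22%) and 20 of 171 other neurons (11.7%). With Chrna7 as a 4th gene the counts were 13, 1 and 5. Th, Sstr2 and Kcnk2 were all at 10 TPM or more in 73 of 90 high Trpa1 neurons (81.1%), 35 of 171 other neurons (20.5%) and 0 of 18 Smr2 neurons. Of Cckar, Npffr2, Sstr2 and Oprl1, 42 of 90 high Trpa1 neurons had all 4 at that level, and all 18 Smr2 neurons had none. These combinations were chosen after the levels of the single genes had been seen.

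The ratios differed in size between plates. Asic3 had log2 ratios of 8.32, 3.51 and 5.73 in plates 2, 3 and 4, Th -4.95, -7.64 and -6.001, and Kcnk2 -4.22, -4.30 and -4.32. The high Trpa1 neurons with the highest Asic3, 368 and 495 TPM, were both in plate 3. Chrna7 had 5.36, 6.00 and 5.22. All 4 genes passed 2-fold with the same direction in each of these plates.

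**Figure D5:**
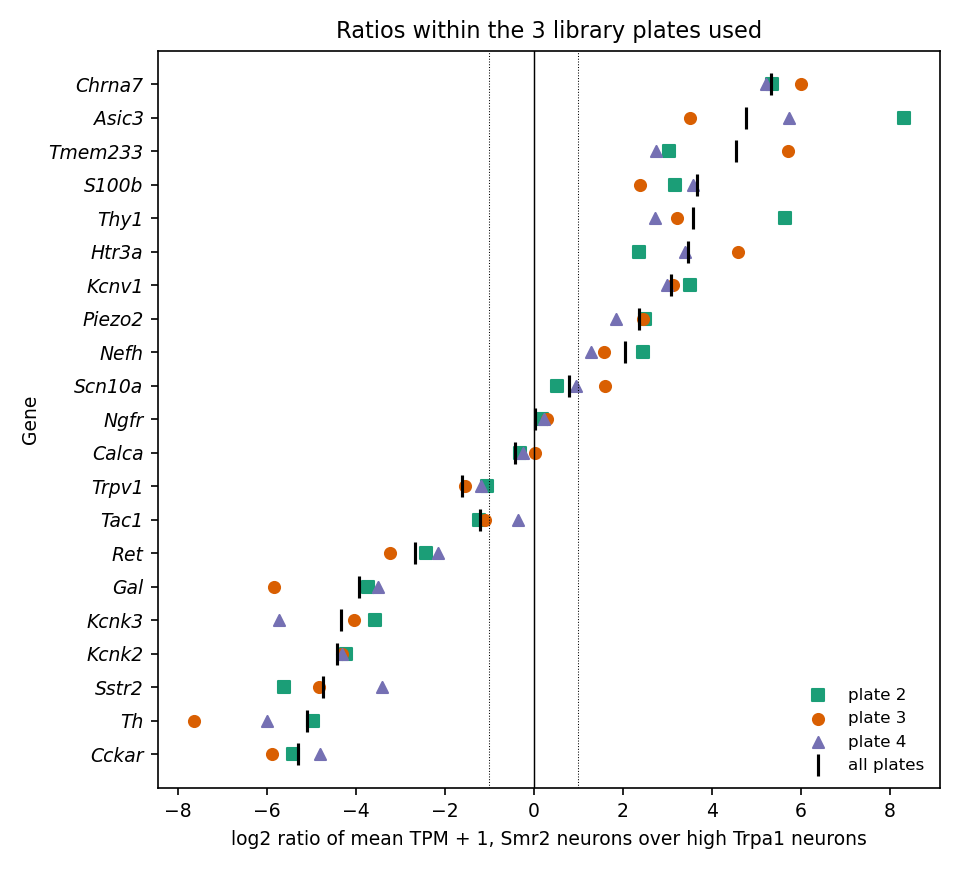
Log2 ratio of mean TPM + 1 in Smr2 over high Trpa1 neurons (horizontal axis) for 21 genes within plate 2 (5 and 10 neurons), plate 3 (3 and 16) and plate 4 (4 and 26), with a black bar for all plates and dotted lines at a 2-fold ratio. Kcnk2 lies between -4.32 and -4.22 in the plates, and Asic3 between 3.51 and 8.32.

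Smr2 neurons were not alike. Sorted by Smr2, 6 of them had 10.3 to 105 TPM and 12 had 197 to 2487 TPM, and a limit of 150 TPM was set in this gap after the levels had been seen. Of the 6, 5 had at least 100 TPM of Gfra3 and 4 at least 10 TPM of Trpa1, and all were TL neurons. The neuron of the 6 without Gfra3 also had 0 TPM of Trpa1, and 15.5 TPM of Smr2 from 11 reads. It had 114 TPM of Fam19a1, the study's marker of its subtype mNFb, and 494 TPM of Nefh. Of the 12, 0 had 100 TPM of Gfra3, 2 had 10 TPM of Trpa1, and 5 were LS neurons. Gpr35, an inhibitory receptor, ranged from 28.0 to 96.6 TPM in the 6 and from 0 to 17.4 TPM in the 12. Chrna7 ran the other way, from 0 to 48.1 TPM in the 6 and from 82.4 to 567 TPM in the 12. Kcnip1 ran like Chrna7, from 1.39 to 20.6 TPM in the 6 and from 33.3 to 142 TPM in the 12. None of these genes overlapped between the 6 and the 12, while most listed genes did. They were picked after their levels had been seen, and the share over all genes was not counted. Gpr35 is a study marker of mPEPb, and Chrna7 and Kcnip1 are study markers of mPEPa, chosen on neurons of this same table.

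Peptide and TRP channel genes also differed along this gap, with overlap. Gal had a median of 1200 TPM in the 6 and 14.6 TPM in the 12, Trpv1 721 and 66.4 TPM, and Tac1 2866 and 478 TPM. The medians of Asic3 (218 and 178 TPM) and Htr3a (748 and 589 TPM) lay nearer to each other. With the 12 neurons alone, the number of genes called was 456 higher and 862 lower, from plates 2 and 3. The 6 came from plates 2, 4, 5 and 6.

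Ratios were also taken within segments, although the LS value rests on 5 Smr2 neurons, 3 of them in plate 3. For Asic3 the log2 ratio was 4.07 in TL and 8.38 in LS neurons, for Gal -3.53 and -6.43, and for Trpv1 -1.41 and -1.94. Asic3 was 368 and 495 TPM in the highest TL high Trpa1 neurons, both of plate 3, and at most 4.19 TPM in LS ones. The LS ratio of Asic3 therefore leans on the added 1 TPM. Htr3a ranged from 376 to 3394 TPM (mean 1882) in the 5 LS Smr2 neurons, and had a mean of 630 TPM in the 13 TL Smr2 neurons. Piezo2 was 0.54, 21.8, 52.5, 42.3 and 54.3 TPM in the LS Smr2 neurons, 4 of which were thus above 10 TPM, and had a median of 5.52 TPM in TL Smr2 neurons. Npffr2 had a mean of 44.9 TPM in TL and 11.3 TPM in LS high Trpa1 neurons. No difference between segments was tested.

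The markers that the study gave for its subtypes were chosen on neurons of this same table, so that their direction is not independent evidence. Only a part of them was taken. Among the genes named above, Asic3, Chrna7, Kcnv1 and Kcnip1 are mPEPa markers of the study. Tnfaip8l3, Hs3st2, Gpr35, Rxrg, Hmx1, Irx6 and Adra2a are mPEPb markers of the study. Of 23 mPEPa markers 20 were compared, of which 15 were higher in Smr2 neurons and 0 lower. Of 23 mPEPb markers 20 were compared and all 20 were lower. Pcp4l1 ranged from 0 to 4698 TPM (median 2384) in Smr2 neurons and had a median of 7.22 TPM in high Trpa1 neurons. Pkia and Sap30l, with log2 ratios of 0.99 and 0.90, were 2 of the 5 compared mPEPa markers that were not called.

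RNA of satellite glia, the cells that wrap DRG neurons, differed widely between single neurons and had higher means in Smr2 neurons. All 9 glial genes compared had positive log2 ratios, from 0.21 to 3.68. Their median was 1.18, against -0.08 for all genes compared. The summed level of 10 glial genes ranged from 494 to 49497 TPM (median 2779) in Smr2 neurons and from 44.2 to 25110 TPM (median 1056) in high Trpa1 neurons. Apoe, Sox10, Cdh19 and Ednrb had higher means in Smr2 neurons in plates 2 and 4 and lower ones in plate 3, and of the 9 compared only S100b was called. S100b, a calcium-binding protein of glia that large sensory neurons also make, ranged from 183 to 2740 TPM (median 639) in Smr2 neurons and from 0 to 1913 TPM (median 27.0) in high Trpa1 neurons. In the 9 Smr2 neurons whose other glial genes summed to less than 1038 TPM, S100b ranged from 353 to 2740 TPM, against 0 to 214 TPM in 45 such high Trpa1 neurons. The part of glial RNA in the other ratios was not tested. The paper removed cells with contaminating glia before its clustering. The labels do not name these cells, so the groups here may hold some of them. In the 12 Smr2 and 69 high Trpa1 neurons left without those of highest glial score, 372 genes were higher and 604 lower. There only plates 2 and 3 set the sign, a looser condition, so these counts cannot be set against those from all neurons.

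Transcripts of other cell types differed by list. Fibroblast genes summed to at most 287 TPM (median 9.42) in Smr2 and 849 TPM (median 27.9) in high Trpa1 neurons, and macrophage genes to at most 111 TPM (median 21.7) and 161 TPM (median 63.4). Endothelial genes summed to at most 6.03 TPM in Smr2 and 91.7 TPM in high Trpa1 neurons. Of the macrophage genes, C1qb was lower in Smr2 neurons (mean 17.1 and 57.7 TPM), and of the fibroblast genes Dcn (25.1 and 73.0 TPM). Their part in the other ratios was not tested. None of the 7 injury genes and 1 of 12 immediate early genes, Btg2 (-1.16), was called. Summed injury genes had a median of 2442 TPM in Smr2 and 1651 TPM in high Trpa1 neurons.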

How the data were processed

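The authors sequenced Smart-seq2 libraries of single neurons, and the submitters' processing notes name bcl2fastq 2.15.0.4, STAR 2.4.1, featureCounts 1.4.4 and GRCm38.p3. The authors deposited normalised log2 values, recorded here as a score, of 45513 Ensembl genes in 325 neurons that had passed their quality filter. The paper then removed further cells for contaminating satellite glia before it clustered the rest, and this table still holds those cells. All columns of this table were mapped to a labelled neuron. The labels hold 399 neurons, and those outside the table, like the control libraries of bath solution, were not used here. Each value was taken off the log2 scale, 1 was subtracted and each neuron was rescaled to a sum of 1000000 (TPM). Whole reads, 485370 to 14312393 per neuron, were recovered from the values with gene lengths within a relative tolerance of 1e-06, and CPM of these reads served as an alternative. Recovered reads were thinned to 500000 per neuron for 1 alternative to the shares, which left out 1 kept neuron.

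The count of genes past 2-fold used a pseudocount of 1 TPM and an average of the group means of at least 5 TPM. No test was run, since no mouse or culture is named, and no doublet caller was run on picked neurons. Genes named are those of the rule and the study's panel, list members past the ratio with the same direction in every plate used, known nociceptor genes without such a ratio, and the 12 leading genes in each direction. Genes near Smr2, genes of other cell types, markers of the study and list members below 10 TPM in both groups were named after their values were seen. The groups and the gene lists were chosen with earlier results of these data known. Promoter windows are from RefSeq and transcripts from GENCODE M21, aligned with blastn 2.17.0. A few listed genes are not reported here by name. Trpa1 had no promoter window in the table used. The ratio script was tested on simulated data. Python 3.11.15, pandas 2.3.3 and scipy 1.17.1 were used.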

Additional observations from a re-analysis of the deposited data

How the results depend on the processing

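The 114 log2 ratios of listed and leading genes kept their sign under every alternative, except Grik1, Lpar3 and Mrgprd, whose ratio was 0 by group medians. These genes had been called for 1 sign in plates 2, 3 and 4, which favours a kept sign. In all, 357 of 2736 values moved by more than 1 SD between plates. The 2736 include the 4-fold limit and the changed minimum levels, which cannot change a ratio. The most ratios moved by group medians (58 of 114), in LS neurons alone (55), by means of log2 values (48) and with Smr2 of at least 150 TPM (44). Of 9410 genes, 311 were higher and 528 lower. The counts were 478 and 1020 with a minimum of 1 TPM, 491 and 1217 without a minimum, and 98 and 149 at 4-fold, where 16 listed genes were higher and 32 lower, against 34 and 64. On the unscaled deposited values 815 genes were lower, and from means of log2 values 864. In TL neurons alone, where only plates 2 and 4 set the sign, 468 genes were higher. In LS neurons alone, where only plate 3 set the sign, 560 were higher, and 58 listed genes. With Smr2 of at least 150 TPM, a limit chosen after seeing the data, 862 were lower. Leaving out each plate in turn gave 319 to 482 genes higher and 464 to 711 lower, and leaving out plate 3 gave the 482 and the 711. Listed genes numbered 30 to 38 and 60 to 69, and the LS shares were 13.3% to 38.5% of Smr2 neurons and 24.3% to 34.3% of high Trpa1 neurons. At a threshold of 1 TPM, Chrna7 was expressed in 94.4% of Smr2 and 46.7% of high Trpa1 neurons, against 77.8% and 8.89%. The cause of these shifts was not tested. Depth limits the low genes, such as Gm42621 with a median of 25 reads in a Smr2 neuron. No paired analysis was possible because the labels name no mouse or culture by which neurons could be paired, and the ratios come from no test.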
